A study of Mus musculus with 6 samples.

Results

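Footprints of ribosomes on genes for voltage-gated and transient receptor potential (TRP) ion channels were compared between MIN6 cells that expressed sgLTN1 and MIN6 cells that expressed sgNT. The members were the rows of the count table whose gene name begins as those of the potassium (Kcn), calcium (Cacn), sodium (Scn), hyperpolarisation-activated (Hcn), chloride (Clcn) or TRP (Trpc, Trpm, Trpv) families. Kcnj11, Cacna1c, Cacna1d and Trpm5 were left out by the rule. It gave 166 members among the 21652 genes of the table, of which 93 were potassium, 24 calcium, 14 sodium, 9 chloride, 4 HCN and 22 TRP genes. The rule goes by name and takes in accessory subunits, Trpc4ap, which encodes a TRPC4-binding protein and no channel, and Trpc5os, an antisense gene to Trpc5.

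MIN6 is an insulin-secreting line from a mouse pancreatic beta-cell tumour, and ribosome profiling counts short stretches of mRNA shielded by ribosomes from nuclease digestion. Cells with sgNT, taken as the non-targeting CRISPR guide, and cells with sgLTN1, a guide against Ltn1, gave 3 libraries each. No treatment, time course or second allele is named in the labels, which also do not say how the guides were delivered, whether the cells were 1 clone, or whether libraries came from separate cultures. The p-values therefore measure the spread between these libraries, which may be technical.

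Voltage-gated channels open and close with membrane potential. In beta cells, closure of ATP-sensitive potassium channels depolarises the membrane, voltage-gated calcium and sodium channels fire, calcium entry triggers insulin granule release, and voltage-gated and calcium-activated potassium channels end the spike. Pore-forming subunits are membrane proteins made on ribosomes at the endoplasmic reticulum, and accessory subunits set their traffic and gating. Intracellular chloride transporters of the Clcn family serve endosomes and lysosomes, and TRP channels carry cations in response to lipids, temperature, calcium or stretch.

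The libraries held 4373467 to 11198735 counts. Ltn1, which encodes a ubiquitin ligase that marks nascent chains on stalled ribosomes, read 143, 145 and 141 CPM (counts-per-million, scaled between libraries) in sgNT libraries 1 to 3, and 65.3, 71.5 and 64.9 CPM in sgLTN1 libraries 1 to 3. It was lower in every sgLTN1 library and fell by 1.09 on the log2 scale (SE 0.07, adjusted p = 9.24e-05 in edgeR's test). The defining beta-cell markers summed to between 94800 and 105000 CPM in sgNT and between 93000 and 115000 CPM in sgLTN1, although Slc2a2, the beta-cell glucose transporter, had only 13 and 22 counts over the libraries of each group. Among markers of other cells, the 5 neuronal genes summed to 536 to 582 CPM in sgNT and 508 to 540 CPM in sgLTN1, and all 4 tested lay below 0 in log2 fold change. The neuronal nuclear marker Rbfox3 had 19 and 13 counts. The 3 immune markers summed to 28.5 to 35.3 CPM in sgNT and 25.7 to 28.9 CPM in sgLTN1, nearly all from Cd68, and the 5 acinar and 3 endothelial markers summed to under 5 CPM in every library. Markers of other islet cells stood higher in sgLTN1, with the 5 alpha-cell markers at 4370 to 4540 CPM against 5000 to 5680 CPM, mostly from Ttr, which rose (0.37, SE 0.06, adjusted p = 0.0458 in edgeR's test). Gcg was level at 562 ± 14.5 and 566 ± 34.7 CPM. The 2 delta-cell markers, chiefly Sst, summed to 30.5 to 33 CPM against 41.4 to 48.7 CPM, and Ppy of PP cells to 2.06 to 3.96 CPM against 4.97 to 6.95 CPM. The part of these markers in the results was not tested.

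Of the 166 members, every one had a count in at least 1 library and 146 had a count in each library. A filter on low counts kept 104, namely 50 potassium, 19 calcium, 12 sodium, 6 chloride, 4 HCN and 13 TRP genes. The 62 others held between 3 and 62 counts over all 6 libraries, with a median of 22, and are described by those counts alone. They included 11 of 14 inward rectifier genes, 7 of 14 tandem-pore genes and 14 of 40 voltage-gated potassium pore genes, among them Kcna5 (4 counts) and Kcnj1 (3 counts). All 4 HCN genes, all 8 calcium alpha1 genes and all 5 endolysosomal Clcn genes passed the filter. A member could pass through either group, so the counts of tested members do not describe all 166. Gene values are CPM per gene and not per length, since coding lengths were not used here, so levels are compared only within a gene.

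No ion channel gene differed between the groups past the threshold of 0.05 for adjusted p (edgeR's quasi-likelihood test, Benjamini-Hochberg over 12782 genes), which 0.18% of all tested genes passed. At an unadjusted p below 0.05 there were 23 of the 104, or 22.1%, against 15.6% of all tested genes. DESeq2 called 2 of the 14 members to which it gave an adjusted p, against 8.42% of all genes that had one. Of the 23, 14 lay higher in sgLTN1, where 8% of all genes did so, and 9 lower, where 7.56% did. The libraries of the groups did not overlap for 21 of the 104 members (20.2%), and the share was also 20.2% among all genes. There were 14 such members higher and 7 lower, with 10.1% of all genes in either direction. The median log2 fold change (sgLTN1 over sgNT) was 0.01 over the tested members and -0.02 over all genes, and 53 members lay above 0 (51%, against 47.3% of all genes). In bulk libraries, fewer cells with a channel's mRNA, less of it per cell and fewer ribosomes on it cannot be told apart.

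The families differed in where their members lay. All 6 chloride genes were above 0 with a median of 0.17, and 3 of 4 HCN genes with a median of 0.31. Of 12 sodium genes, 10 were below 0 with a median of -0.16. Of 19 calcium genes, 13 were below 0, though their median was -0.03. Potassium genes (29 of 50 above 0, median 0.05) and TRP genes (7 of 13, median 0.05) lay on both sides. These are descriptions with no test. The sodium median was -0.05 without sgNT library 3, -0.08 without sgLTN1 library 1, -0.22 without sgNT library 2 and -0.09 with the abundance trend removed, and the calcium median ran from -0.13 without sgLTN1 library 3 to 0.03 without sgNT library 3. With scaling by total counts the potassium and TRP medians turned to -0.03, and the median of all members to -0.07.

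**Figure D1:**
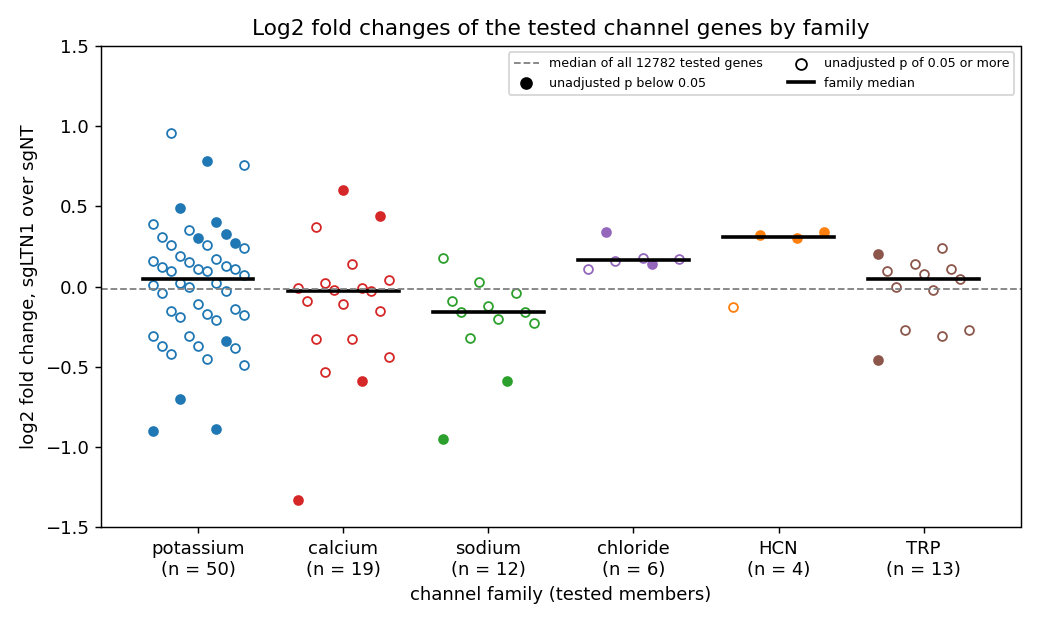
Log2 fold change of footprints, sgLTN1 over sgNT (vertical axis), for each of the 104 tested channel genes by family (horizontal axis); filled points have an unadjusted p below 0.05 in edgeR, bars are family medians and the dashed line is the median of all 12782 tested genes. The 6 chloride genes lie between 0.11 and 0.34, 3 HCN genes near 0.3, and 10 of 12 sodium genes below 0, while no gene passed an adjusted p of 0.05.

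The direction moved with abundance, as it did over the table. Of the 35 members with a mean of 4 or more on the log2 CPM scale, 30 (85.7%) lay above 0 with a median of 0.16, where 54.8% of all 5863 genes of that abundance lay above 0 with a median of 0.02. Of the 69 members under 4, 23 (33.3%) lay above 0 with a median of -0.11, where 41% of 6919 genes did, with a median of -0.06. Cacng3, Hcn3, Kcnab2 and Scn9a were among the 5 abundant members below 0. After a trend on abundance was removed within each library, 61 of the 104 members lay above 0 with a median of 0.06, and the medians were 0.10 for chloride and 0.28 for HCN genes. Whether abundance accounts for the positions of the families was not tested further.

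**Figure D2:**
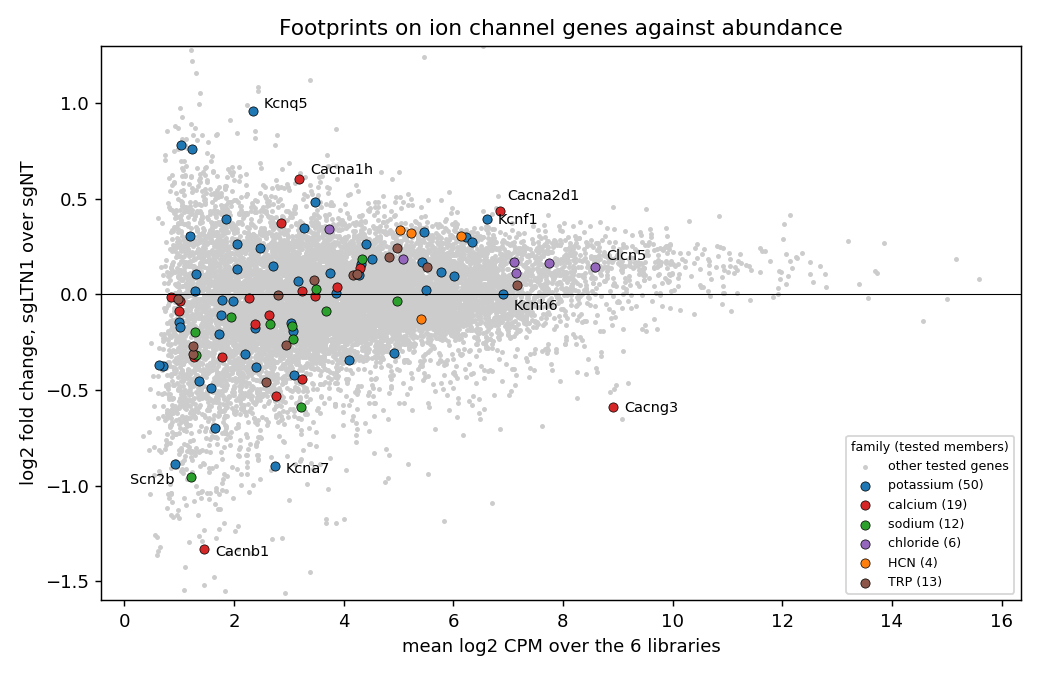
Log2 fold change, sgLTN1 over sgNT (vertical axis), against the mean log2 CPM over the 6 libraries (horizontal axis) for the tested channel genes, coloured by family, and for the other tested genes in grey; a few grey genes beyond the vertical range are not drawn. Of the 35 channel genes at 4 or more on the horizontal axis, 30 lie above 0, with Cacng3 at -0.59 apart from them, and members under 4 spread from -1.33 to 0.96.

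Among the pore-forming voltage-gated potassium genes, 15 of 26 tested lay above 0 with a median of 0.02. Kcnf1 encodes an electrically silent subunit that joins the Kcnb delayed rectifier channels and alters their gating. It read 86.9, 85.1 and 78.7 CPM in sgNT libraries 1 to 3 and 112, 116 and 102 CPM in sgLTN1 libraries 1 to 3. Every sgLTN1 library was above every sgNT library. The log2 fold change was 0.40 (SE 0.08, 95% interval 0.23 to 0.56; 83.6 ± 4.28 and 110 ± 7.22 CPM, mean ± SD, n = 3 per group), and edgeR's test gave adjusted p = 0.0734, the lowest among the members. Kcnb2, a delayed rectifier gene chosen after its values were seen, had a log2 fold change of 0.35 (SE 0.18), with groups that overlapped.

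Kcnh6, an ether-a-go-go-related potassium channel gene expressed in islets, read 125, 125 and 109 CPM in sgNT and 118, 128 and 114 CPM in sgLTN1. The groups lay over each other, and the log2 fold change was 0.00 (95% interval -0.17 to 0.17). Its relative Kcnh1 averaged 61.8 ± 3.0 and 65.9 ± 5.21 CPM (0.10, SE 0.08), also with overlap. Kcnq5, which encodes a subunit of the slow M-current, had the highest log2 fold change of the family, 0.96 (SE 0.59), from 1 library. It read 2.52, 2.60 and 4.10 CPM in sgNT and 11.4, 2.39 and 2.26 CPM in sgLTN1, and without sgLTN1 library 1 the log2 fold change was -0.36. Kcna7, a Shaker-type channel gene, had the lowest at -0.90 (SE 0.37, adjusted p = 0.281 in edgeR's test). Its values were 5.73, 7.05 and 14.2 CPM in sgNT and 3.52, 3.80 and 8.22 CPM in sgLTN1, so that library 3 was the highest of each group and the groups overlapped.

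Among potassium accessory subunits, Kcnab2 was the member with the smallest p. It encodes a cytosolic beta subunit of Shaker-type channels that resembles an oxidoreductase. It read 18.6, 19.8 and 18.8 CPM in sgNT and 15.2, 15.9 and 13.8 CPM in sgLTN1, with all sgLTN1 libraries lower. The log2 fold change was -0.34 (SE 0.10, 95% interval -0.57 to -0.12, adjusted p = 0.165 in edgeR's test). Kcnip3, a calcium-binding protein that associates with the Kcnd channels, averaged 52.1 ± 1.81 and 57.0 ± 5.51 CPM (0.12, SE 0.09), and its groups overlapped.

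The inward rectifier, tandem-pore and calcium-activated genes with the smallest p all lay above 0. Kcnj6, a subunit of the G protein-gated inward rectifiers that receptors open to hyperpolarise the cell, read 75.2, 73.7 and 68.6 CPM in sgNT and 89.8, 88.4 and 84.5 CPM in sgLTN1. The groups were apart, at a log2 fold change of 0.27 (SE 0.07, 95% interval 0.12 to 0.43, adjusted p = 0.131 in edgeR's test). Kcnk9, an acid-sensitive leak channel gene, read 40.6, 38.5 and 36.5 CPM and 52.9, 47.3 and 43.8 CPM, again with no overlap (0.33, SE 0.09, adjusted p = 0.152 in edgeR's test). Kcnk16, which encodes an alkaline-activated leak channel enriched in islets, read 11.0, 9.03 and 6.69 CPM and 11.8, 13.7 and 11.7 CPM (0.49, SE 0.17). Kcnma1, the pore of the large-conductance calcium-activated channel, read 67.8, 74.1 and 58.5 CPM and 85.2, 83.9 and 78.1 CPM (0.30, SE 0.09, adjusted p = 0.169 in edgeR's test). For these 4 genes the lowest sgLTN1 library lay above the highest sgNT library. The tandem-pore genes as a whole lay on both sides of 0, with 3 of 7 tested above it and Kcnk15 at -0.89 (SE 0.39). Of the inward rectifier genes 1 of 3 tested lay above 0, and of the calcium- and sodium-activated genes 5 of 7.

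**Figure D3:**
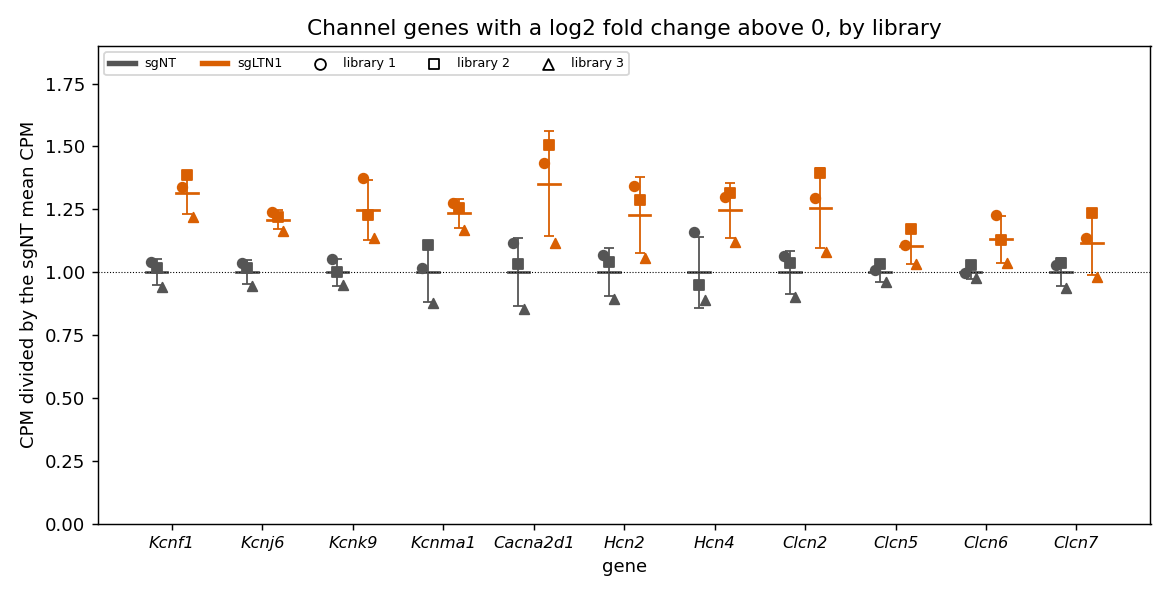
CPM in each library divided by the gene's mean over the sgNT libraries (vertical axis) for 11 named channel genes with a log2 fold change above 0 (horizontal axis); symbols are libraries 1 to 3 and bars give the mean and SD of each group, n = 3. Library 3 is the lowest of its group for all 11 genes in both groups, and the groups are apart for genes such as Kcnf1, Kcnj6 and Kcnma1 but not for Cacna2d1, Hcn2 or Hcn4.

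For the 11 genes in that plot of CPM relative to sgNT, library 3 was the lowest of the sgNT libraries in 11 and the lowest of the sgLTN1 libraries in 11. Over all 104 tested members, sgNT library 3 was the lowest of its group for 39 and the highest for 41, and sgLTN1 library 3 the lowest for 40 and the highest for 41.

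The calcium family held the member with the most counts, Cacng3 (18721), and the one with the lowest log2 fold change, Cacnb1. Cacng3 belongs to the gamma subunit family and is known chiefly as an auxiliary protein of AMPA-type glutamate receptors in brain. It took between 58.3% and 77.1% of all counts on calcium members in a library. It read 622, 417 and 701 CPM in sgNT and 355, 355 and 448 CPM in sgLTN1, so that sgLTN1 library 3 lay above sgNT library 2. The log2 fold change was -0.59 (SE 0.16, 95% interval -0.94 to -0.23; 580 ± 147 and 386 ± 53.6 CPM, n = 3 per group), with adjusted p = 0.144 in edgeR's test. Without sgNT library 2 it was -0.77 with adjusted p = 0.0465 in edgeR's test, and over the 6 fits that left out a library the adjusted p ran from 0.0429 to 0.473. The 4 other tested gamma genes lay between -0.33 and 0.02.

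Cacna2d1, the alpha2delta subunit that carries calcium channels to the membrane and binds gabapentin, read 108, 100 and 82.6 CPM in sgNT and 139, 146 and 108 CPM in sgLTN1. Libraries 1 and 2 of sgLTN1 were above all sgNT libraries, while library 3 was level with the highest of them. The log2 fold change was 0.44 (SE 0.12, 95% interval 0.17 to 0.71, adjusted p = 0.149 in edgeR's test). Cacnb1, a cytosolic beta subunit known from skeletal muscle, read 3.90, 2.47 and 5.82 CPM in sgNT and 1.62, 0.977 and 2.26 CPM in sgLTN1. Its groups did not overlap, at -1.33 (SE 0.39, adjusted p = 0.162 in edgeR's test), on 102 counts in all.

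Of the 8 calcium alpha1 pore genes, 3 lay above 0 and 5 below. Cacna1h, a low-voltage-activated T-type pore, read 7.11, 6.56 and 7.12 CPM in sgNT and 10.8, 8.69 and 12.3 CPM in sgLTN1, with no overlap and a log2 fold change of 0.60 (SE 0.17, adjusted p = 0.152 in edgeR's test). The other T-type genes were at 0.04 (SE 0.17) for Cacna1g and -0.44 (SE 0.22) for Cacna1i. The N-type gene Cacna1b, at 18.2 ± 1.65 and 20.3 ± 1.27 CPM, was at 0.14 (SE 0.11). The P/Q-type gene Cacna1a was at -0.01 (95% interval -0.46 to 0.45).

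Of the 9 tested sodium channel alpha genes, 8 lay below 0. Scn9a, the pore gene with the most counts of this family and one of the principal sodium channels of mouse beta cells, read 29.3, 31.9 and 33.0 CPM in sgNT and 32.6, 30.2 and 28.8 CPM in sgLTN1. The groups lay over each other, at -0.04 (95% interval -0.24 to 0.16). Scn3a, the exception among the alpha genes, read 21.1, 17.7 and 17 CPM and 20.0, 22.5 and 20.5 CPM (0.18, SE 0.11). Scn8a read 13.0 ± 1.23 and 12.1 ± 0.450 CPM (-0.09, SE 0.12). Scn1a read 13.5, 10.3 and 9.92 CPM in sgNT and 8.49, 7.71 and 5.14 CPM in sgLTN1, with all sgLTN1 libraries lower (-0.59, SE 0.19, adjusted p = 0.193 in edgeR's test). Scn2b, an accessory beta subunit with an immunoglobulin-like domain, read 2.75, 2.97 and 2.80 CPM and 1.62, 1.3 and 1.44 CPM, also with no overlap (-0.95, SE 0.28, adjusted p = 0.159 in edgeR's test), on 86 counts in all.

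Many sodium channel genes lie beside each other in the genome. By the order of protein-coding genes in RefSeq (GRCm38.p6), 42 members formed 18 runs of neighbours with no other gene between them, the longest of 3. Scn10a and Scn11a, which are neighbours, were at -0.23 (SE 0.20) and -0.20 (SE 0.30), with groups that overlapped. In the run of Scn1a, Scn9a and Scn7a, the first 2 were at -0.59 and -0.04, and Scn7a had 21 counts. Scn3a and Scn2a, a neighbouring pair, were at 0.18 (SE 0.11) and -0.16 (SE 0.14). Differences between neighbours were not tested, and short reads of such related genes can be exchanged between them.

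**Figure D4:**
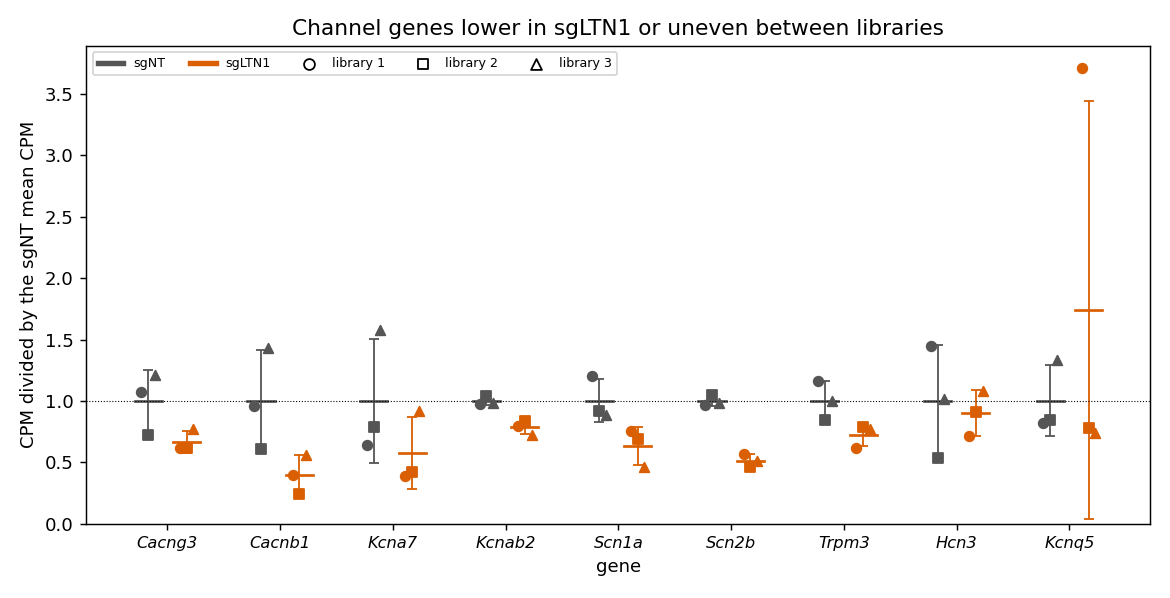
CPM in each library divided by the gene's mean over the sgNT libraries (vertical axis) for 9 named channel genes (horizontal axis) that were lower in sgLTN1 or uneven between libraries; symbols are libraries 1 to 3 and bars give the mean and SD of each group, n = 3. Kcnab2, Scn1a, Scn2b, Cacnb1 and Trpm3 do not overlap between groups, Cacng3 and Kcna7 do, Kcnq5 stands at 11.4 CPM in sgLTN1 library 1 alone, and Hcn3 runs from 24.5 to 66.5 CPM among the sgNT libraries.

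HCN channels open on hyperpolarisation and carry the pacemaker current. Hcn2 read 66.7, 64.8 and 55.7 CPM in sgNT and 83.7, 80.2 and 66.0 CPM in sgLTN1. Hcn4 read 33.2, 27.2 and 25.5 CPM in sgNT and 37.2, 37.7 and 32.1 CPM in sgLTN1. In both genes, libraries 1 and 2 of sgLTN1 were above all sgNT libraries and library 3 was within their range. The log2 fold changes were 0.30 (SE 0.10) and 0.34 (SE 0.11), with adjusted p-values of 0.198 and 0.196 in edgeR's test. Hcn3 did not share this pattern, at 66.5, 24.5 and 46.8 CPM in sgNT and 32.8, 41.6 and 49.7 CPM in sgLTN1 (-0.13, SE 0.28), and it was at 0.26 without sgNT library 1 and at 0.02 without sgLTN1 library 1.

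The 5 endolysosomal Clcn genes encode chloride and proton exchangers of endosomes and lysosomes, of which Clcn7 serves the lysosome. All 5 lay above 0, between 0.11 and 0.18. Because they lay together, their RefSeq promoters (GRCm38.p6, the 250 bases before a transcript start) were searched on both strands for CACGTG, the core of the element bound by the lysosomal regulator TFEB, a palindrome. By gene, it was in the promoters of 3 of the 5 (Clcn4, Clcn6 and Clcn7) and of 1854 of all 27025 genes. By window, it was in 3 of the 9 windows of the 5 genes and in 6.02% of all 32851 windows. The same core with GT before it and AC after it, the longer palindrome, was in none of the 9 windows and in 0.24% of all, and the cyclic AMP response element TGACGTCA in 1 of the 9 and in 1.55%. The matching windows are shown 5′ to 3′ with the core in capitals, for Clcn4 (chr7:7299558-7299807, minus strand), Clcn6 (chr4:148038814-148039063, minus strand) and Clcn7 (chr17:25133141-25133390, plus strand). A match describes letters only, and footprints do not measure transcription.
Clcn4: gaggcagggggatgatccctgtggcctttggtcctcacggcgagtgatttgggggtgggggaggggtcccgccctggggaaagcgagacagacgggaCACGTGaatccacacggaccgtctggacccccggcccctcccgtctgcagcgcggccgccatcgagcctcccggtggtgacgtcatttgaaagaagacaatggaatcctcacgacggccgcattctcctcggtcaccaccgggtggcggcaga
Clcn6: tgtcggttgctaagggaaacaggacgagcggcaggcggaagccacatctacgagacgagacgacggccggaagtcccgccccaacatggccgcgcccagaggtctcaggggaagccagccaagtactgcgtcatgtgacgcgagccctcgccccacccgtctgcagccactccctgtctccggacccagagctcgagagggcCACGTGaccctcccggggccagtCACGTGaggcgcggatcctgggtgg
Clcn7: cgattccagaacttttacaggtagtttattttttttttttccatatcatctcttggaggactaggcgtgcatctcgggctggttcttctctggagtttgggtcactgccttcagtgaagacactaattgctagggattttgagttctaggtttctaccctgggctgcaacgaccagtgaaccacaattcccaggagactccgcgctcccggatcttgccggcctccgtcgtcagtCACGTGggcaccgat

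Of these genes, Clcn7 read 206, 208 and 188 CPM in sgNT and 228, 248 and 197 CPM in sgLTN1, where library 3 overlapped sgNT (0.16, SE 0.09). Clcn6, with the core at 2 places, read 31.2, 32.2 and 30.6 CPM and 38.4, 35.4 and 32.5 CPM, with no overlap (0.18, SE 0.09, adjusted p = 0.356 in edgeR's test). Clcn5, an endosomal exchanger with no CACGTG in its windows, read 369, 378 and 351 CPM and 405, 429 and 378 CPM. The groups did not overlap, but by so little that the highest sgNT and lowest sgLTN1 libraries both round to 378 CPM (0.14, SE 0.06, adjusted p = 0.318 in edgeR's test). Clcn3, also without the core, read 139, 140 and 129 CPM and 150, 149 and 142 CPM, with no overlap (0.11, SE 0.07). Clcn2, the only plasma membrane member of the family with enough counts, read 11.9, 11.6 and 10.1 CPM and 14.5, 15.6 and 12.1 CPM, with no overlap (0.34, SE 0.14, adjusted p = 0.255 in edgeR's test). The exchanger gene Clcn4, which holds the core, read 133, 137 and 115 CPM and 153, 154 and 125 CPM, with overlap (0.17, SE 0.10).

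The TRP genes gave the narrowest spread of log2 fold changes among families of over 10 tested genes, between -0.46 and 0.24. Trpm7, a channel fused to a protein kinase that carries magnesium, read 47.0, 45.8 and 36.7 CPM in sgNT and 48.1, 50.2 and 44.6 CPM in sgLTN1, with overlap (0.14, SE 0.10). Trpv2 read 25.7, 25.2 and 27.2 CPM and 28.8, 29.9 and 30.8 CPM, with no overlap (0.20, SE 0.09, adjusted p = 0.308 in edgeR's test). Trpm3, a heat and steroid sensor described in beta cells, read 8.02, 5.81 and 6.90 CPM and 4.24, 5.43 and 5.34 CPM, lower in every sgLTN1 library (-0.46, SE 0.20, adjusted p = 0.302 in edgeR's test). Trpc1 read 30.7, 28.9 and 25.9 CPM and 34.9, 40.4 and 23.6 CPM, where sgLTN1 library 3 was the lowest of all 6 (0.24, SE 0.16). Trpc4ap, which is no channel, was at 0.05 (SE 0.09).

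As a share of all counts, the 166 members took 0.330%, 0.315% and 0.333% in sgNT and 0.320%, 0.315% and 0.306% in sgLTN1. Without Cacng3 the shares were 0.268%, 0.272% and 0.261% in sgNT and 0.285%, 0.281% and 0.263% in sgLTN1. The groups overlapped in both cases, and the order of their means turned with that 1 gene.

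Of the members, 14 carried an adjusted p according to the authors' deposited table, and 13 of these 14 lay above 0. These 14 had the highest mean counts of the members there, and abundant genes leaned upward over the whole table. In edgeR's fit, 65.3% of all genes with a mean of 6 or more on the log2 CPM scale lay above 0, and 12 of 13 members. The authors' deposited table called 2 members, both higher, and 8.42% of all genes with such a value. In the authors' deposited table, Kcnf1 was at 0.42 (SE 0.11) with adjusted p = 0.0055 by DESeq2 and Cacna2d1 at 0.46 (SE 0.13) with adjusted p = 0.0152 by DESeq2. Cacng3 was at -0.57 (SE 0.23) in the authors' deposited table, with adjusted p = 0.0938 by DESeq2. In edgeR without sgLTN1 library 3, 4 of 114 tested members were called, against 2.47% of all genes tested there: Kcnf1, Cacna2d1 and Hcn2 above 0 and Cacng3 below. Without sgNT library 2, 1 of 100 members was called, Cacng3, against 0.0718% of all genes. Without the filter on low counts, 3 of 166 were called, Kcnf1, Cacna2d1 and Cacng3, against 1.06% of all genes. Leaving out any of the 4 other libraries gave no called member. With the replicate number as a block, 9 of 104 members were called, where 609 of all 12782 genes were. Deviations of same-numbered libraries correlated weakly over all genes (-0.048, 0.067 and 0.088).

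The 4 channel genes that the rule left out and Abcc8, the sulfonylurea receptor gene, were listed together as triggering channels of insulin release. All 5 were above 0 with a median of 0.23, though Trpm5 was level at 0.01 (SE 0.11), and none passed the threshold over all genes. Cacna1d was at 0.21 (SE 0.16), with groups that overlapped. Abcc8 read 3020 ± 188 and 3530 ± 244 CPM (0.23, SE 0.07), the L-type pore gene Cacna1c was at 0.30 (SE 0.09) and the ATP-sensitive pore gene Kcnj11 at 0.24 (SE 0.09). Among 30 genes of channel partners, 19 were tested, 9 above 0 and 10 below with a median of -0.03, and none passed. The smallest p were for the calmodulin genes Calm2 (-0.32, SE 0.08) and Calm3 (-0.28, SE 0.08) and the anchoring protein gene Akap9 (0.19, SE 0.06). Among 56 genes of other ion channels, 44 were tested, 27 above 0 and 17 below with a median of 0.07, and none passed. There the smallest p were for Stim1 (0.35, SE 0.07), the calcium store sensor, the endolysosomal channel gene Tpcn1 (0.30, SE 0.08) and Pkd1 (0.21, SE 0.07), which encodes polycystin.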

How the data were processed

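Footprint libraries of MIN6 cells, 3 with sgNT and 3 with sgLTN1, were grouped by the genotype in the labels. The authors deposited whole-number counts per gene for each library. Per the submitters' processing notes, fastp, UMI-tools, Bowtie2, STAR, SAMtools, featureCounts and DESeq2 1.38.3 served, and the mouse build was GRCm39. How strand and reads with several alignments were treated is not given in the sources used here, and therefore related and antisense genes are uncertain. Per the file headers, the authors' comparison table gives DESeq2's log2 fold change, p-value, a Wald statistic (score) and a mean over libraries of normalized counts (signal).

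Genes were filtered by filterByExpr, scaled by TMM (factors 0.954 to 1.04) and tested with edgeR 4.0.16 (R 4.3.3), group as the only term, with Benjamini-Hochberg adjustment over 12782 genes. The biological coefficient of variation was 8.92%. The test was first tested on simulated data. Log CPM took a prior count of 2. Alternatives were DESeq2 1.42.0, other scalings, no filter, a replicate block, each library left out, and an abundance trend removed before limma 3.58.1.

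The members and gene lists were chosen with earlier results of these data known. Named are Ltn1, the members with the smallest p, the most counts, and the highest and lowest log2 fold change of each family, and 3 genes of each partner list. The rule had asked for density per coding length, and mean CPM was used instead. RefSeq (GRCm38.p6) matched 165 members by symbol and gave promoters for 125. The motifs, and the few other genes named, were chosen after the values were seen. Not every gene that met the rule is reported here.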

Additional observations from a re-analysis of the deposited data

How the results depend on the processing

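The count of called genes over the table was 23 of 12782 here and depended on the setting, as did the number tested. Scaling by total counts called 42 of 12782 (8 higher and 34 lower, against 11 and 12). Without the filter 222 of 20854 were called. DESeq2 called 227 of the 2697 genes to which it gave an adjusted p (183 higher and 44 lower). There were 14 with the abundance trend removed, and 4 to 333 with 1 library left out. Called channel genes numbered 0 of 104 here, 3 of 166 without the filter, 2 of 14 by DESeq2, and 0 to 4 with 1 library left out. Over all 12782 genes, deviations of same-numbered libraries correlated weakly (-0.048, 0.067 and 0.088), and 3 of 6 libraries correlated best with their own number. Library 3 was the lowest of both groups for the 11 plotted genes above 0. Over the 104 tested members it was the lowest for 39 in sgNT and 40 in sgLTN1. With a replicate block, 609 of 12782 genes and 9 of 104 channel genes were called (Cacna2d1, Kcnf1, Kcnj6, Kcnk9, Kcnma1 and Hcn2 above 0, Cacng3, Cacnb1 and Kcna7 below). The median of all members was -0.07 by total counts and 0.06 without the trend, that of potassium genes -0.03 and 0.11, and that of sodium genes -0.24 and -0.09. Leaving out 1 library gave ranges of -0.02 to 0.09, 0.03 to 0.13 and -0.22 to -0.05 for these 3 medians. With 1 library left out, the calcium median ran from -0.13 to 0.03, chloride from 0.12 to 0.24, HCN from 0.23 to 0.40 and TRP from 0.03 to 0.10. Of 38 named genes, 31 kept their sign under all alternatives. Cacna1a turned to 0.00 (RLE factors), 0.01 (no filter), 0.01 (replicate block), 0.04 (DESeq2) and 0.06 (trend removed), Kcnh6 to -0.07 (total counts) and -0.04 (trend removed), Trpc4ap to -0.03 and -0.01, and Cacna1g to -0.04 (total counts). With 1 library left out, Cacna1a ran from -0.20 to 0.16, Cacna1g from -0.13 to 0.17, Hcn3 from -0.46 to 0.26, Kcnh6 from -0.06 to 0.05, Kcnq5 from -0.36 to 1.35, Scn9a from -0.09 to 0.00 and Trpc4ap from -0.01 to 0.13. The cause was not tested. With 3 libraries a group and 86 to 102 counts on genes such as Scn2b and Cacnb1, differences of that kind are measured imprecisely.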
